A study of Mus musculus with 10 samples.

Results

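The genes described here encode 8 enzymes and factors that act on immunoglobulin genes during class switch recombination and somatic hypermutation, or on the DNA breaks and lesions these processes leave: Ung, Apex1, Apex2, Msh6, Exo1, Polh, Trp53bp1 and Xrcc5. They were chosen by symbol, and the rule used no measured value, although earlier results of these data were known when the genes were chosen. All 8 were found among the 26434 gene symbols of both RNA tables, with 30 of the 61112 transcripts. RNA-seq of purified mRNA set mouse naive B cells beside plasma cells, which secrete antibody, with 1 library per cell type. Both groups came from wild-type C57BL/6 mice. The naive B cells were sorted from spleen as CD23+ IgD+ cells. The labels of the plasma cells conflict: the source field names cells activated in vitro and then sorted, the growth protocol describes a culture of CD23-selected splenocytes, and the extraction protocol describes a sort of CD138+ B220- cells from bone marrow. Neither reading was assumed. For sex, age and pooling of animals the sources used here give nothing. With 1 library per cell type no difference below has a replicate check and none was tested.

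Both processes start when cytosine in immunoglobulin genes is deaminated to uracil. Uracil-DNA glycosylase (Ung) removes the uracil and an AP endonuclease (Apex1 or Apex2) can cut the abasic site. Alternatively a dimer that contains Msh6 binds the mismatch, Exo1 removes a stretch of the strand, and the error-prone polymerase eta (Polh) fills the gap and adds mutations. In class switching, breaks in distant switch regions are protected and joined with the help of 53BP1 (Trp53bp1) and Ku80 (Xrcc5), the partner of Ku70. These events are known from activated and germinal centre B cells, and several of the same proteins serve general repair and replication in dividing cells.

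The naive library held 36995177 estimated counts and the plasma library 43457786. Levels are given as TPM, the abundance per transcript length scaled to the same total in each library. Ratios are log2 of plasma over naive TPM with 1 TPM added to each, which draws the ratio of low genes toward 0 before centring. This ratio had a median of -0.99 over 7488 genes that reached 5 TPM in each library. The share of TPM from immunoglobulin genes was 5.03% in the naive library and 34.8% in the plasma library. All ratios below are centred on that median unless stated. After centring, a gene at 0 TPM in both libraries has a ratio of 0.99, and ratios of low genes are drawn toward that value. Calls required a 2-fold difference after centring, that is a ratio of 1 or more in either direction, and 5 TPM or more in 1 library. Of 10191 genes with that level, called the genes tested below, 1628 (16.0%) were called higher in plasma cells and 2242 (22.0%) lower, 38.0% in all. Without centring the split was 790 higher and 5870 lower, with centring on genes of at least 20 TPM it was 1212 and 3441, and with counts scaled by TMM factors it was 2240 and 1704. In the naive B marker list 7 of 7 measured genes were called lower, and 6 of 7 tested plasma cell markers were called higher. The exception was Sdc1, which encodes the sort marker CD138 (11.1 TPM in the naive library, 5.38 TPM in the plasma library). A further listed plasma cell marker, Tnfrsf17, was under 5 TPM in both (2.24 TPM in the naive library, 1.68 TPM in the plasma library). The summed levels of markers of other cells were also lower in the plasma library: 94.8 and 3.21 TPM for 8 T and NK cell markers, 145 and 2.25 TPM for 8 myeloid markers, and 67.0 and 0.184 TPM for 6 erythroid markers. The listed markers at 0 were all in the plasma library, 3 of the T and NK list and 4 of the erythroid list. The bone marrow sort that the labels describe also left out cells with CD4, CD8, Gr1 or Ter119 on the surface. The part of these cells in the values below was not tested. In such bulk samples fewer cells with a transcript and less of it per cell cannot be told apart.

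The 8 genes did not move as a group. Ung and Msh6 were called higher in plasma cells and none was called lower among the 7 with at least 5 TPM. The other 5 of these lay between the limits, with Polh just under the upper limit and Trp53bp1 at the lower one. Exo1, the lowest of the 8, had a high ratio but stayed under 5 TPM in both libraries. The median ratio of the 7 was 0.15, against -0.23 over all genes tested, and 2 of 7 called higher stands beside 16.0% of all genes tested (22.0% lower, 38.0% in either direction). Without centring none of the 7 was called higher and 3, Apex1, Trp53bp1 and Xrcc5, were called lower. With centring on genes of at least 20 TPM 1 was called higher (Msh6) and 1 lower (Trp53bp1), and with TMM factors 3 were called higher (Ung, Msh6 and Polh) and none lower.

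**Figure D1:**
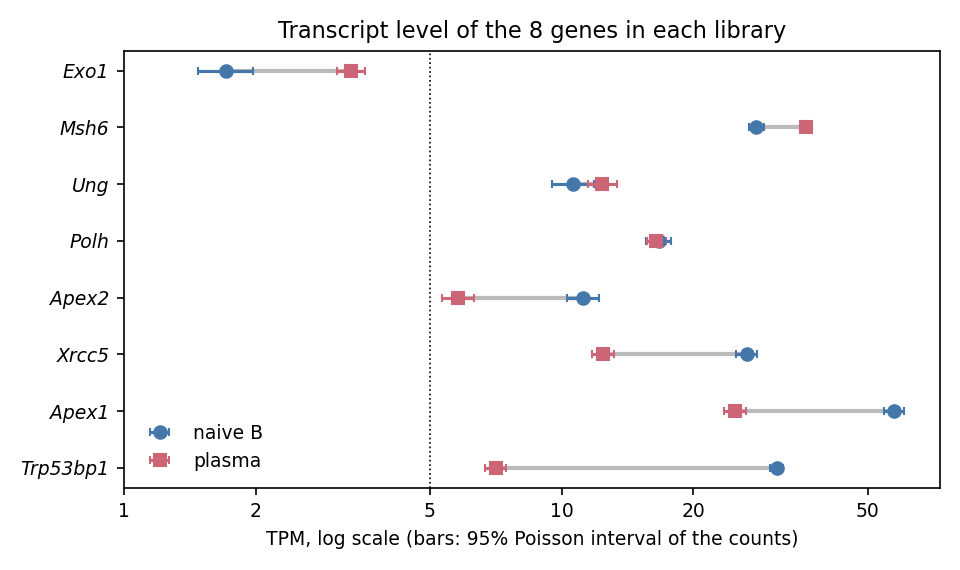
Level of each gene in TPM (log scale) in the naive B library (circles) and the plasma library (squares), with 95% Poisson intervals of the estimated counts as bars and the minimum of 5 TPM as a dotted line. Genes are ordered by their centred ratio, from Exo1 (1.65) at the top to Trp53bp1, at the limit of a call, at the bottom.

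The order of the levels differed between the libraries. In naive B cells Apex1 was the highest at 57.5 TPM, followed by Trp53bp1 at 31.0, Msh6 at 27.8, Xrcc5 at 26.4, Polh at 16.7, Apex2 at 11.2, Ung at 10.6 and Exo1 at 1.71 TPM. In plasma cells Msh6 was the highest at 36.1 TPM, followed by Apex1 at 24.9, Polh at 16.5, Xrcc5 at 12.4, Ung at 12.4, Trp53bp1 at 7.07, Apex2 at 5.81 and Exo1 at 3.30 TPM. Counting intervals of neighbours overlapped for Msh6 and Xrcc5 and for Apex2 and Ung in naive B cells, and for Xrcc5 and Ung in plasma cells. Together the 8 genes took 183 TPM in the naive library and 118 TPM in the plasma library. Intervals are 95% intervals for counting error alone: without molecular identifiers the reads are not independent molecules, and the spread between animals or cultures is not measured.

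Ung, the uracil-DNA glycosylase, went from 10.6 TPM (332 estimated counts) in the naive library to 12.4 TPM (675 estimated counts) in the plasma library. Its centred ratio of 1.19 was a call, and its ratio of estimated counts, centred in the same way but without a pseudocount, had an exact interval of 0.97 to 1.36. It was above 0 in all 11 alternatives, although those that change only the minimum level could not alter a ratio. Of the 11, 4 gave no call: a pseudocount of 5 TPM (0.99), no centring (0.20), centring on genes of at least 20 TPM (0.85), and its highest transcript alone, which lay under 5 TPM. Mammalian Ung makes a nuclear and a mitochondrial protein from different starts, and the files do not say which transcript encodes which. Ung-001, with the longest coding sequence (921 bases), was at 2.92 and 3.17 TPM, and Ung-003, with a coding sequence of 600 bases, at 4.15 and 4.42 TPM. Ung-005, a 609-base model without a 3' end, was at 2.80 and 4.28 TPM. Ung-002 (888 bases of coding sequence) was at 0.78 and 0.51 TPM. The shares of Ung-001 in the TPM of the gene were close, 27.4% in the naive library and 25.6% in the plasma library.

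Apex1, the major AP endonuclease, was listed at 57.5 TPM in the naive library (1351 estimated counts) and 24.9 TPM in the plasma library (1086 estimated counts). The centred ratio was -0.19, with an interval of -0.29 to -0.06 on counts. Its sign was positive with TMM factors (0.15) and with protein-coding transcripts of GENCODE vM21 only (1.04), which leave out its main transcript, and without centring it was called lower (-1.18). In both libraries nearly all of it was assigned to 1 of 5 transcripts, Apex1-201, with 98.4% and 96.0% of the TPM of the gene. Its exons share 61.7% of their bases with Pip4p1 (Tmem55b in the files) on the opposite strand, in the GENCODE vM21 annotation. Tmem55b was at 160 and 29.4 TPM, a centred ratio of -1.42 beside -0.19 for Apex1. The libraries were made with dUTP, which marks the strand, but the sources used here do not say whether the quantification used it.

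Apex2, the weaker and X-linked AP endonuclease, differed more in the form of its transcript than in its level. The gene was at 11.2 TPM in the naive library (557 estimated counts) and 5.81 TPM in the plasma library (528 estimated counts), a centred ratio of 0.15 with a count interval of -0.11 to 0.24. The sign turned negative without centring (-0.84) and with centring on genes of at least 20 TPM (-0.19), and with its highest transcript alone the gene was called lower (-1.66). Apex2-004 was at 7.37 TPM in the naive library and 0.42 TPM in the plasma library, whereas Apex2-201 was at 0.18 and 3.86 TPM. The estimated counts were 279 and 29.8 for Apex2-004 and 6.85 and 280 for Apex2-201. These 2 transcripts are identical apart from 53 additional bases at the start of Apex2-201 and a segment of 21 bases, or 7 codons, within the coding sequence of Apex2-004 (bases 258 to 278 of that transcript). Both are shown around the segment because it separates the forms that differ between the libraries. The segment is in capitals, with 20 bases on each side, as read from GENCODE vM21, where all 7 Apex2 transcripts have the lengths of the deposited table.
Apex2-004: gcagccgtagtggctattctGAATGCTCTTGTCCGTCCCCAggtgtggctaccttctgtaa
Apex2-201: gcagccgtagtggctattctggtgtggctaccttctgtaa

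Apex2-004 was the only one of the 7 transcripts with the segment, and the other 6 had the junction that skips it. The transcript with the segment took 65.8% of the TPM of the gene in naive B cells and 7.18% in the plasma library. By estimated counts the shares were 50.0% (exact interval 45.9 to 54.3%) and 5.64% (3.87 to 8.01%), and these intervals do not overlap. They do not cover the error of assigning reads to transcripts that share nearly all their bases, and the assignment also rests on the 53 bases at the start. Of the other transcripts, Apex2-002, with a short coding sequence of 783 bases, was at 2.00 and 0.80 TPM, and Apex2-001 was at 1.15 and 0.53 TPM. Sex-linked transcripts moved with the comparison of these libraries: Xist, the RNA that coats an inactive X chromosome, was at 0.38 TPM in the naive library and 128 TPM in the plasma library, and the Y-linked Eif2s3y at 104 and 0 TPM. The 302 X-linked genes tested had a median ratio of -0.28, close to the -0.23 over all genes tested. The part of sex in the values of Apex2 and of the other genes was not tested. By Xist and Eif2s3y the naive library held mainly RNA of male cells and the plasma library RNA of female cells. With 1 library per cell type, effects of this difference on the values cannot be told apart from those of cell type.

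**Figure D2:**
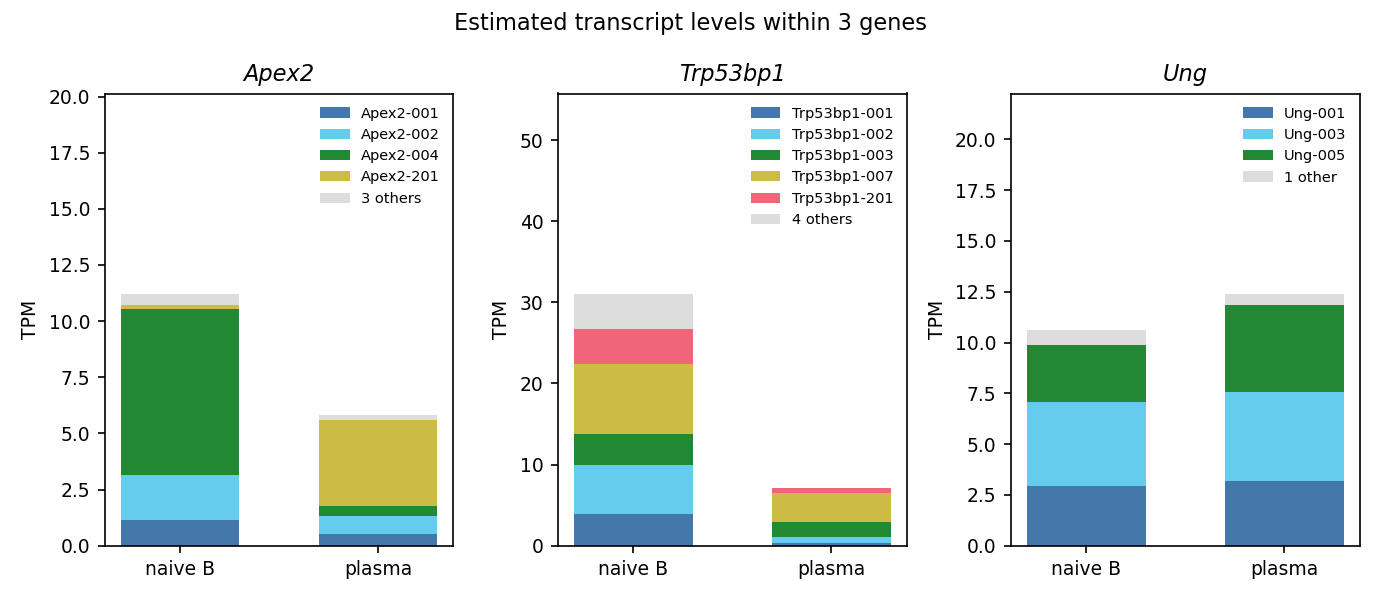
Estimated TPM of the transcripts of Apex2, Trp53bp1 and Ung in the naive B and plasma libraries, stacked so that each bar is the level of the gene; transcripts under 10% of the gene in both libraries are in grey. Apex2-004 (7.37 TPM in the naive library) and Apex2-201 (3.86 TPM in the plasma library) fill most of the Apex2 bars, and Trp53bp1-007 is the largest part of Trp53bp1 in both libraries.

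Msh6, which encodes a mismatch-binding protein, was called higher and became the most abundant of the 8. It went from 27.8 TPM (2457 estimated counts) in the naive library to 36.1 TPM (6014 estimated counts) in the plasma library, on 1 annotated transcript. The centred ratio was 1.35, beside a centred count ratio of 1.43 with an interval of 1.36 to 1.50. It was above 0 in all 11 alternatives and was called in 10, the exception being no centring (0.36). Msh3, which encodes a related protein that recognises larger mismatches, was at 25.4 and 12.8 TPM (0.05). A ratio of 2 genes inside a library needs no centring. The TPM of Msh6 relative to Msh3 was 1.10 in the naive library and 2.82 in the plasma library, 2.58-fold higher (counting interval 2.37 to 2.81). The level of Msh6 was thus near that of Msh3 in naive B cells and above it in plasma cells. On estimated counts the centred ratio of Msh3 was -0.16 (-0.26 to -0.05) rather than 0.05. The interval of the fold does not cover this difference between TPM and counts. The exons of Msh6 share 34 bases with Fbxo11 on the opposite strand.

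Exo1, the exonuclease recruited after mismatch binding, had the highest ratio of the 8 and the lowest level. It was at 1.71 TPM (196 estimated counts) in the naive library and 3.30 TPM (713 estimated counts) in the plasma library. Its centred ratio was 1.65, and 0.66 without centring, and its centred count ratio was 2.00 with an interval of 1.77 to 2.24. The gene was under the minimum of 5 TPM and was therefore not called. Without a minimum it was the third of the 8 called higher. Pms2, whose product acts in the same mismatch repair pathway, was at 34.3 and 15.4 TPM (-0.12).

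Polh, which encodes polymerase eta and makes most mutations at A and T bases in hypermutation, had nearly the same TPM in both libraries. It was at 16.7 TPM (864 estimated counts) in the naive library and 16.5 TPM (1621 estimated counts) in the plasma library. Relative to the median gene this is a centred ratio of 0.97, just under the limit for a call, with a count interval of 0.93 to 1.17 that spans it. It was called higher in 4 of 11 alternatives, and without centring its ratio was -0.02. Polh-201 was at 14.8 and 15.2 TPM and the shorter Polh-202 at 1.88 and 1.25 TPM, which left Polh-201 with 88.7% of the gene in naive B cells and 92.4% in the plasma library.

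Trp53bp1, which encodes 53BP1, a chromatin protein that shields broken ends from resection, was the lowest of the 8 by ratio. It went from 31.0 TPM (3641 estimated counts) in the naive library to 7.07 TPM (1358 estimated counts) in the plasma library. The centred ratio of -0.99999 fell just short of the limit, so the gene was not called. The centred count ratio was -1.28, and its interval, -1.37 to -1.19, lay beyond the limit. The ratio of the gene was below 0 in all 11 alternatives and called lower in 6. Its transcripts did not move alike. The 3 transcripts with a complete coding sequence and both untranslated regions (Trp53bp1-001, Trp53bp1-002 and Trp53bp1-201) summed to 14.2 TPM in the naive library and 1.68 TPM in the plasma library, a centred ratio of -1.51. The other 6, which are partial or short models, summed to 16.8 and 5.38 TPM (-0.49). The complete transcripts thus held 45.7% of the TPM of the gene in naive B cells and 23.8% in the plasma library, and by estimated counts 72.3% and 42.8%.

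Among the partial models, Trp53bp1-007 was at 8.64 and 3.59 TPM and is classed as a target of nonsense-mediated decay in GENCODE vM21. Trp53bp1-003, a model of the 5' part, was at 3.90 and 1.79 TPM. When every gene was represented by its transcript of highest mean TPM, which for Trp53bp1 is -007, the ratio was -0.17. The complete transcripts Trp53bp1-001 and Trp53bp1-002, which differ by 150 coding bases and 66 bases at the start, were at 3.95 and 0.32 TPM and at 5.95 and 0.75 TPM. Trp53bp1-201 was at 4.27 and 0.61 TPM. Reads from the shared exons of these models cannot be assigned with certainty. The exons of Trp53bp1 also share 15.0% of their bases with Tubgcp4 on the opposite strand, which was at 33.2 and 7.91 TPM (ratio -0.96), near the values of Trp53bp1, and whether antisense reads enter either value was not tested.

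Xrcc5, which encodes the Ku80 subunit of the end-binding Ku dimer, stayed close to the median gene. It was at 26.4 TPM (1391 estimated counts) in the naive library and 12.4 TPM (1234 estimated counts) in the plasma library, a centred ratio of -0.04 with a count interval of -0.14 to 0.08. Without centring it was called lower (-1.03), and with TMM factors its ratio was 0.29. Xrcc6, which encodes Ku70, was at 39.5 and 25.8 TPM (ratio 0.39). The TPM of Xrcc5 relative to Xrcc6 was 0.67 in the naive library and 0.48 in the plasma library, 0.72 times the naive value (counting interval 0.65 to 0.80). Prkdc, the kinase subunit that binds Ku at DNA ends, was called lower, with 14.9 TPM in the naive library and 2.79 TPM in the plasma library (ratio -1.08). Lig4, the ligase of the same pathway, was at 8.64 and 4.23 TPM (0.10).

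The genes around the 8 were read from 7 lists, and the 89 listed genes outside the 8 were all measured. Of 84 with at least 5 TPM, 9 (10.7%) were called higher and 11 (13.1%) lower, beside 16.0% and 22.0% of all genes tested, and their median ratio was -0.12 against -0.23. Without centring the split was 4 higher and 44 lower, with centring on genes of at least 20 TPM it was 9 and 25, and with TMM factors 17 and 7. In the list of genes tied to the deamination step 1 of 16 was called higher and 2 were called lower. The lower genes were the splicing regulator Ptbp2 (24.5 and 2.83 TPM, -1.74) and Cib1 (162 and 35.9 TPM, -1.16).

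In base excision repair 2 of 14 tested genes outside the 8 were called higher and 2 lower. The higher genes were the flap endonuclease Fen1 (24.9 and 62.4 TPM, ratio 2.28) and the replicative ligase Lig1 (32.5 and 55.9 TPM, 1.75). Smug1, another uracil-DNA glycosylase, was lower (14.8 and 1.54 TPM, -1.65), while Ung was called higher. In mismatch repair 1 of 12 was higher, the clamp loader subunit Rfc4 (22.5 and 38.8 TPM, 1.75), and 1 was lower, its partner subunit Rfc1 (68.1 and 15.3 TPM, -1.10). In translesion synthesis none of 11 was higher and 3 were lower: the ubiquitin ligase Shprh (25.0 and 2.61 TPM, -1.86), polymerase iota, Poli (35.2 and 4.55 TPM, -1.72), and Rev3l, the catalytic subunit of polymerase zeta (24.8 and 4.69 TPM, -1.19). Among the genes of that list with at least 5 TPM Polh had the highest ratio.

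In break end protection and signalling 2 of 14 were called higher and 2 lower. The higher genes were the histone variant H2afx (28.8 and 47.7 TPM, ratio 1.69) and Pagr1a, listed as 2900092E17Rik (14.8 and 21.6 TPM, 1.51). On estimated counts the centred ratio of Pagr1a was only 0.38 (0.26 to 0.49), short of a call, and with centred CPM 1 gene of the list was called higher. The scaffold protein Mdc1 was lower (45.5 and 7.74 TPM, -1.42), and the median of the list, -0.48, was the lowest of the 7. In end joining Prkdc was the 1 call among 9 genes. In homologous recombination 3 of 8 were called higher and none lower, beside 16.0% and 22.0% of all genes tested. Without centring 2 of that list were higher and 4 lower. Among its genes called higher with centring were Brca1 (4.59 and 10.5 TPM, 2.02) and Rad54l (3.16 and 6.35 TPM, 1.81). Cell cycle markers moved with these values. In that list 11 of 12 were called higher, with a median ratio of 3.28 and summed levels of 283 TPM in the naive library and 919 TPM in the plasma library. Their part in the ratios of Msh6, Exo1 and Ung was not tested. Of 5 germinal centre markers with at least 5 TPM, 2 were called higher, among them Mef2b (0.86 and 46.8 TPM, 5.67). In the same list 1, Bcl6, was called lower (59.2 and 3.82 TPM, -2.66), and the median ratio was 0.91.

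**Figure D3:**
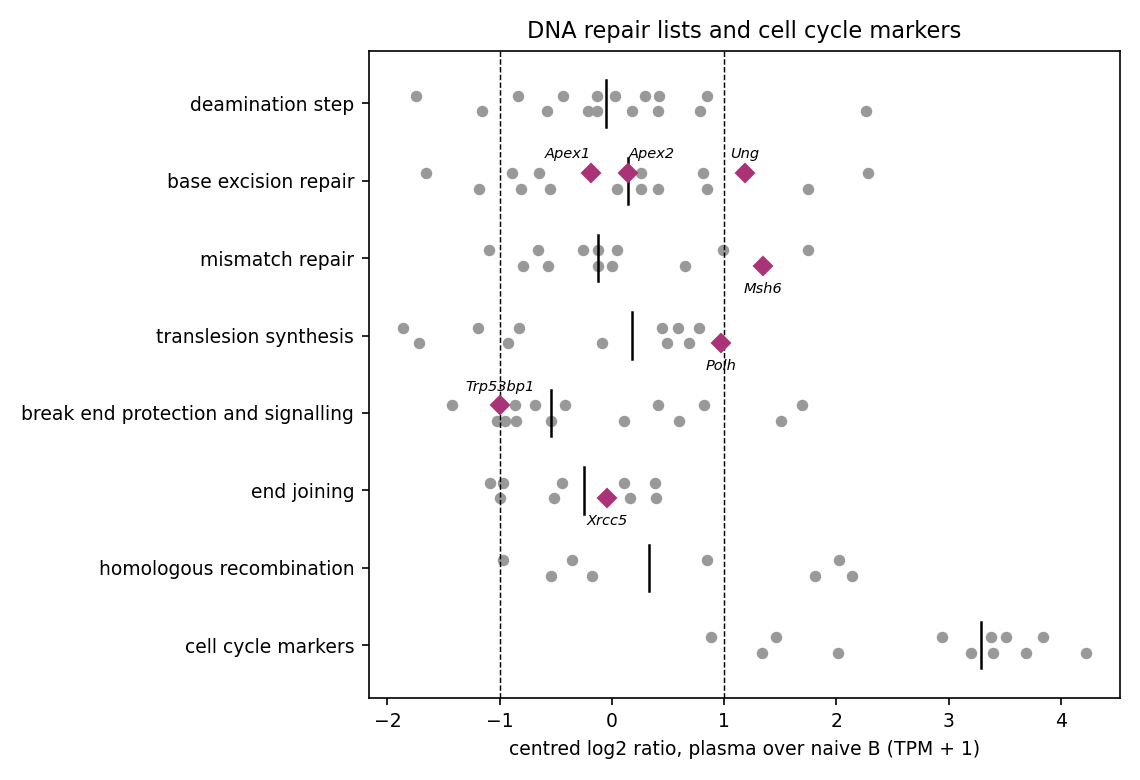
Centred log2 ratio of plasma over naive TPM for the genes with at least 5 TPM in 7 lists of DNA repair genes and in the list of cell cycle markers; diamonds with names are members of the 8, circles other genes, vertical bars the list medians, and dashed lines the limits of a call. Ung (1.19) and Msh6 (1.35) lie right of the upper limit, Trp53bp1 lies at the lower limit, and 11 of 12 cell cycle markers lie right of the upper limit.

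By the distance between log2 levels over the 2 libraries, each of the 8 had a nearest gene among all genes of the 7 lists, with no minimum level. Xrcc5 was nearest to Msh3 (distance 0.07), Polh to Rbbp8 (0.11), Trp53bp1 to Dclre1c (0.17), Apex1 to Supt6h (0.21), Apex2 to Polk (0.27), Msh6 to Rfc4 (0.31), Exo1 to Bard1 (0.45) and Ung to Rad18 (0.50). Bard1 was at 2.51 and 2.59 TPM, under the minimum like Exo1. Dclre1c, which encodes the nuclease Artemis, was at 28.4 and 6.45 TPM, a ratio of -0.996. Over 2 libraries such likeness says only that the levels were similar.

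RefSeq promoters (build GRCm38.p6, from 250 bases before to 50 bases after the start) were found for 6 of the 8, without Apex2 and Exo1. Those of the 2 genes called higher are shown, 5' to 3' on the strand of the gene, with every match to a searched motif in capitals. Each motif was searched on both strands. The E2F motif was TTTNNCGC. For NF-Y the letters were CCAAT. The Sp1 motif was spelled GGGCGG. For ETS factors the search used GGAAGTG. The E-box was taken as CACGTG, which reads the same on both strands. No match overlapped one of another motif in these promoters, and 3 neighbouring Sp1 matches in Msh6 share bases at their edges. The promoter of Msh6 lies at chr17:87974800-87975099 on the plus strand and that of Ung at chr5:114130185-114130484 on the plus strand.
Msh6: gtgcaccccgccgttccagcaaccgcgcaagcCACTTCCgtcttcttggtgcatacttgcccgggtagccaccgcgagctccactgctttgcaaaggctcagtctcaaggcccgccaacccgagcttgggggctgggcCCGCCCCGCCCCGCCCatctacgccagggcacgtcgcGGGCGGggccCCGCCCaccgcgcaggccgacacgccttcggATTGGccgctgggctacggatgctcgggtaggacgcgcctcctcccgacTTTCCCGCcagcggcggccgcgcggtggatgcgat
Ung: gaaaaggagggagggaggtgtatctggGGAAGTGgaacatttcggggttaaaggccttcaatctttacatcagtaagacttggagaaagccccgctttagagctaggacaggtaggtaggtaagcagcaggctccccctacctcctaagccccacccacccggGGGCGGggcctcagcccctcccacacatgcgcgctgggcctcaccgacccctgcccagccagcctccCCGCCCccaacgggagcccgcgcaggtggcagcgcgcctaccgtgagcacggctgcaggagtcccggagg

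Msh6 was the 1 promoter of the 6 with the E2F motif, which 5.17% of the 32851 promoters in the table hold. The match begins 15 bases after the annotated start. Msh6 also held 5 matches to the Sp1 motif and 1 each to NF-Y and ETS, and Ung held 2 to Sp1 and 1 to ETS. The Sp1 motif was found in 5 of the 6 promoters, all but Xrcc5, against 35.7% of all promoters. The ETS motif was found in 3 (Msh6, Polh and Ung) against 11.0%, and these are the 3 highest of the 6 by ratio. The same 3 promoters also had the most G and C of the 6 (Polh 72.0%, Msh6 71.7%, Ung 64.7%). The NF-Y motif was found in 3 (Apex1, Msh6 and Xrcc5) against 37.4%, and the E-box in 2 (Apex1 with 3 matches, Xrcc5) against 7.15%. The 6 promoters had 48.0 to 72.0% G and C, with a median of 52.7% over all promoters, and the part of base composition in these counts was not tested. A match describes the letters only.

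**Figure D4:**
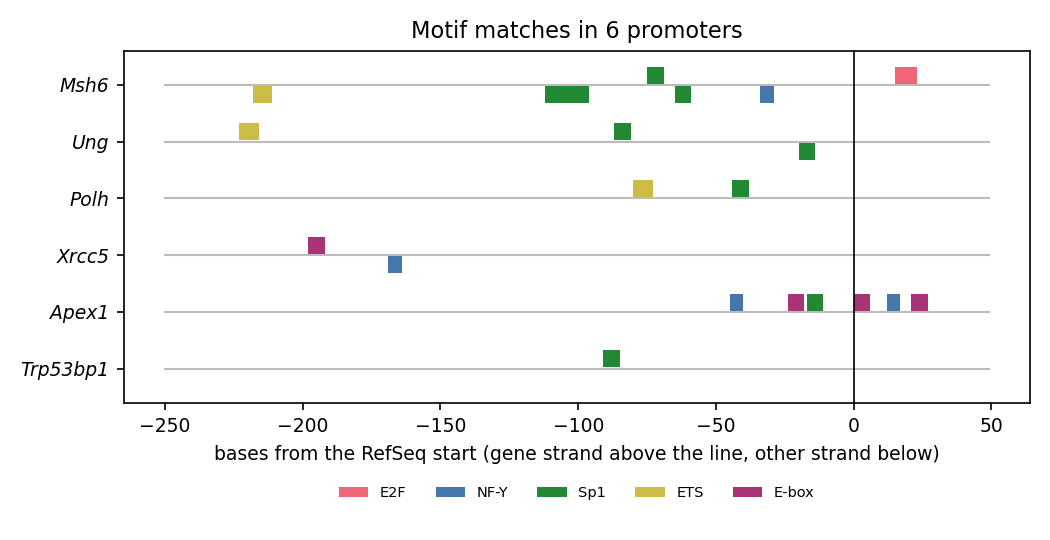
Positions of the motif matches in the promoters of 6 of the genes, in bases from the RefSeq start, with matches on the strand of the gene above each line and on the other strand below; E-box matches are drawn above. Msh6 has the 1 E2F match, 15 bases after the start, and Apex1 has 3 E-box matches near the start.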

How the data were processed

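The 2 RNA libraries of the series were used. Its other files have coordinates of build mm9, for which no annotation was at hand, and were not analysed here. The authors deposited 1 table per library, per the file headers, with an estimated count and a TPM for each transcript. The submitters' processing notes name kallisto. Its version, index release, strand setting and filters are not stated in the sources used here. Transcript values were summed by the symbol in the header. Of 155 entries in 14 further lists, 154 were matched, 9 of them through the gene ID in GENCODE vM21. Transcripts were classed by that annotation or by the regions in the header. Ratios, centring and calls followed the settings in the text (pseudocount 1 TPM, minimum 5 TPM, limit 1). Intervals are exact Clopper-Pearson intervals on rounded estimated counts, exact Poisson intervals for levels, and log-normal intervals from the counts for ratios of 2 genes. TMM factors came from edgeR 4.0.16 on rounded counts, with scipy 1.17.1 for intervals. Named were the 8 genes, their transcripts with at least 10% of the gene, 7 fixed partners, up to 3 called genes with the largest ratio per repair list, and nearest genes; some of these are not reported here. Other genes named, and the ratios of 2 genes, were chosen after values were seen. The 8 genes and the lists were chosen with earlier results of these data known. Calls were repeated under 10 other settings listed at the outset and 1 chosen after seeing the data.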

Additional observations from a re-analysis of the deposited data

How the results depend on the processing

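Over 11 alternatives Ung, Msh6 and Exo1 kept a ratio above 0 and Trp53bp1 one below 0, and no called gene of the 8 changed sign. The genes called higher among the 8 were 2, and became 1 with a pseudocount of 5 TPM, 0 without centring, 1 with centring on genes of at least 20 TPM and 1 with the highest transcript alone. They became 3 with a pseudocount of 0.1 TPM, TMM factors, centred CPM, no minimum or protein_coding transcripts. The genes called lower were 0, and became 1 with a pseudocount of 0.1 TPM, 3 without centring, and 1 each with centring on genes of at least 20 TPM, with centred CPM, with transcripts of the biotype protein_coding, with the highest transcript alone and with complete transcripts, an alternative chosen after seeing the data. With protein_coding transcripts Apex1 fell under the minimum, since its main transcript is not in GENCODE vM21. In the 7 repair lists, with the 8 genes left out, 9 genes were called higher, and 4 without centring and 17 with TMM factors. There 11 were called lower, and 17 with a pseudocount of 0.1 TPM, 6 with 5 TPM, 44 without centring, 25 with centring on genes of at least 20 TPM and 7 with TMM factors. Over all genes 1628 were higher, and 790 without centring and 3671 without a minimum. There 2242 were lower, and 1234 with a pseudocount of 5 TPM, 5870 without centring and 3441 with centring on genes of at least 20 TPM. Without a minimum the median ratio over all genes was 0.86, against -0.23 with it. A gene at 0 TPM in both libraries has a centred ratio of 0.99, so many of the genes added there lie near the upper limit. Of 88 alternative ratios of the 8 genes, 37 moved by more than the distance from the middle to an edge of their counting interval. The 88 include those with no minimum and with a minimum of 10 TPM, which change only the calls, so these ratios could not move. Of 267 values of lists and transcripts, 116 moved by their own limits. No paired analysis was possible because each cell type had 1 library. The depth gave every one of the 8 at least 196 estimated counts, and the spread between samples was not measured.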
